A study of Bos taurus with 8 samples.

Results

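The miR-148 and miR-152 family of the postpartum dairy cow liver was described from small RNA sequencing of 8 Holstein Friesian cows, 1 library per cow. The members were the miRNA genes that the count table names bta-mir-148a (ENSBTAG00000029945), bta-mir-148b (ENSBTAG00000029852) and bta-mir-152 (ENSBTAG00000036361), 3 of 1153 miRNA genes and of 24616 genes in all. The 4 cows in severe negative energy balance (SNEB, libraries 7S, 8S, 9S and 10S) were given 4 kg/day of concentrate and 25 kg/day of silage, with 3 milkings a day. The 4 cows in mild negative energy balance (MNEB, libraries 2M, 3M, 4M and 5M) had grass silage without limit, 8 kg/day of concentrate and 1 milking a day. Liver was taken at slaughter about 14 days after calving. Feed and milking frequency changed together between the groups, so their effects cannot be told apart. Library 2M carries an SNEB treatment label in the repository and an MNEB name in its title. It was analysed as MNEB, and the main comparisons are also given with it in SNEB and without it.

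miR-148a, miR-148b and miR-152 are known as one family because they carry the same seed, the stretch near the 5′ end of a miRNA that pairs with target mRNAs, and they can therefore act on overlapping sets of targets. In mammals the family is known for repressing DNA methyltransferase genes, and in the liver of mice and in human cells miR-148a is known to repress ABCA1, which exports cholesterol. miR-148a is enriched in hepatocytes. The mature sequences of the members were not analysed here, so the shared seed is background and not a result. RefSeq genes of the ARS-UCD2.0 assembly were used for neighbours by name. There miR-148b overlaps COPZ1 and miR-152 overlaps COPZ2, which encode paralogous subunits of the coatomer coat of transport vesicles, while no protein-coding gene lay within 10000 bp of miR-148a. The same annotation has miR-148d overlapping miR-148a, and miR-148c overlapping miR-152. Neither overlapping miRNA is named in the count table, and the sources used here do not say whether the counting used strand, so reads of such a pair cannot be told apart.

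The libraries held 21617227 to 28526343 gene counts in SNEB and 22809423 to 33963761 in MNEB, and miRNA genes held 98.7% to 99.5% of them. Levels are given as reads per 1000000 gene counts (RPM). The liver label fitted its defining marker, since miR-122, the dominant miRNA of hepatocytes, took 67.7% to 76.5% of the miRNA reads in SNEB and 60.9% to 91.9% in MNEB. Library 4M had the lowest share of miR-122 and 5M the highest, and every other miRNA of a library shares what miR-122 leaves. The 12 pairs of libraries within groups differed by more than sampling noise, since the chi-square of each pair over its degrees of freedom was 207 or more. The libraries are from separate cows, and in bulk liver fewer cells of a type and less RNA per cell cannot be told apart.

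miR-152 was the most abundant member and ranked 15th of the miRNA genes by mean RPM. It stood at 2837, 2340, 3654 and 2714 RPM in SNEB libraries 7S, 8S, 9S and 10S, against 2115, 3429, 5956 and 1210 RPM in MNEB libraries 2M, 3M, 4M and 5M. The means were 2886 ± 554 RPM for SNEB and 3178 ± 2064 RPM for MNEB (SD, n = 4 each). None of the 120 miRNA genes with a mean above 10 RPM had groups that did not overlap (0%). For miR-152, all 4 SNEB libraries lay inside the range of the MNEB libraries, whose extremes were 4M and 5M. The medians of the groups were 2775 RPM in SNEB and 2772 RPM in MNEB.

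miR-148a ranked 19th. It stood at 733, 825, 2212 and 789 RPM in SNEB libraries 7S, 8S, 9S and 10S, against 956, 1511, 5688 and 1002 RPM in MNEB libraries 2M, 3M, 4M and 5M. The means were 1140 ± 715 RPM for SNEB and 2289 ± 2280 RPM for MNEB (SD, n = 4 each). The groups overlapped through 9S, and the other SNEB libraries lay below every MNEB library. How many of the 120 miRNA genes were apart with 9S set aside was not counted, so this is not particular to miR-148a. In RPM, 1 library in each group was far above its group. In 4M miR-148a was the 11th most abundant miRNA gene, against ranks 15 to 23 in the other 7 libraries.

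miR-148b was the rarest member and ranked 42nd. It stood at 74.7, 67.2, 329 and 79.6 RPM in SNEB libraries 7S, 8S, 9S and 10S, against 73.5, 98.9, 577 and 16.8 RPM in MNEB libraries 2M, 3M, 4M and 5M. The means were 138 ± 128 RPM for SNEB and 191.5 ± 259 RPM for MNEB (SD, n = 4 each). 5 of the libraries fell between 67.2 and 98.9 RPM, with 9S and 4M far above them and 5M below. The lowest value, in 5M, rested on 571 reads, and its 95% Wilson interval of 15.5 to 18.2 RPM is far narrower than the spread between cows. These intervals cover counting error only, since copies of a molecule made by PCR are counted as reads.

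**Figure D1:**
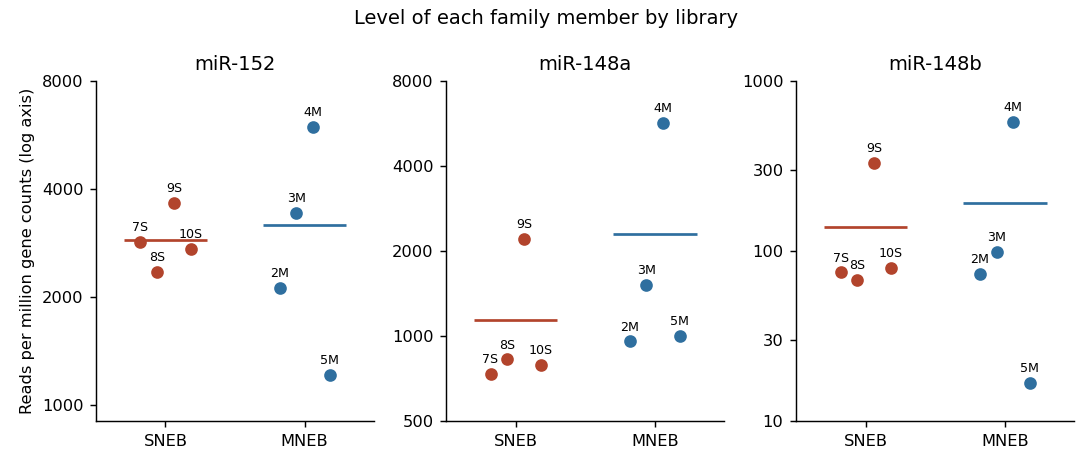
Level of miR-152, miR-148a and miR-148b in reads per 1000000 gene counts, on a log axis, with 1 point per library and SNEB left of MNEB. Horizontal lines are the arithmetic means of 4 libraries, and 9S and 4M are the highest points of their groups in all 3 panels.

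In RPM, libraries 4M and 9S were the 2 highest libraries for all 3 members. This order was shared by 42 of the 120 miRNA genes with a mean above 10 RPM (35.0%), so it is not particular to the family. In the same unit library 5M was the lowest for miR-152 and miR-148b, as for 103 of the 120 (85.8%). For miR-148a it was not, since 5M held more miR-148a in RPM than SNEB libraries 7S, 8S and 10S and MNEB library 2M.

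The order miR-152, miR-148a, miR-148b held within each of the 8 libraries. The neighbouring miRNA genes in the order of mean RPM did not stand apart from the members beyond the spread of the libraries. miR-152 was higher than miR-30a, the next above it (3089 ± 1270 RPM, SD, n = 8), in 5 libraries, and higher than miR-2284x, the next below it (2774 ± 1973 RPM), in 5 libraries. miR-148a was higher than let-7d above it (2124 ± 899 RPM) in 2 libraries and higher than miR-26b below it (1285 ± 526 RPM) in 3. miR-148b was higher than miR-30f above it (167 ± 96.7 RPM) in 2 libraries and higher than miR-125a below it (158 ± 100.2 RPM) in 2. Reads were counted per miRNA gene, with both arms of a hairpin together, and no scaling by length was made. Equal capture of the miRNAs in library preparation was not tested.

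Together the members held 0.369%, 0.327%, 0.626% and 0.362% of the miRNA reads in SNEB libraries 7S, 8S, 9S and 10S, against 0.317%, 0.506%, 1.24% and 0.225% in MNEB libraries 2M, 3M, 4M and 5M. The mean shares were 0.421% ± 0.138 for SNEB and 0.572% ± 0.459 for MNEB (SD, n = 4 each). The difference of -0.151 percentage points turned to 0.0711 without library 4M. Of the miRNA reads that miR-122 left, the family held 1.39% to 1.94% in SNEB and 1.32% to 3.16% in MNEB, and 4M and 5M then had the 2 highest shares.

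The make-up of the family differed between libraries. miR-152 held 77.8%, 72.4%, 59.0% and 75.7% of the family's reads in SNEB libraries 7S, 8S, 9S and 10S, against 67.3%, 68.05%, 48.7% and 54.3% in MNEB libraries 2M, 3M, 4M and 5M. miR-148a held 20.1%, 25.5%, 35.7% and 22.0% in the same SNEB libraries, against 30.4%, 30.0%, 46.5% and 45.0% in the MNEB libraries. In 4M and 5M the reads of miR-148a came close to those of miR-152, while in 7S, 8S and 10S miR-152 had at least 2.84 times as many. miR-148b held 2.05% to 5.31% in SNEB and 0.754% to 4.72% in MNEB, with the highest shares in 9S and 4M and the lowest in 5M.

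**Figure D2:**
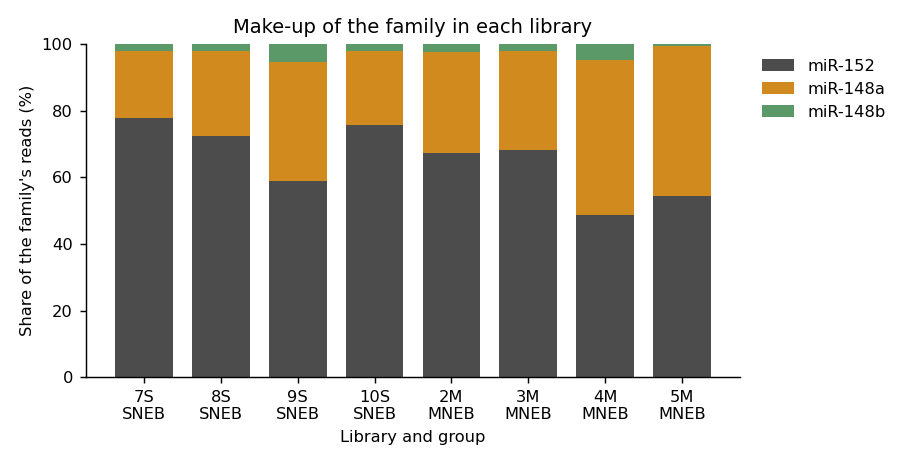
Share of the family's reads held by each member, in percent and stacked to the whole, with 1 bar per library and the SNEB libraries left of the MNEB libraries. miR-152 holds the largest part of every bar, from 48.7% in 4M to 77.8% in 7S.

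A ratio of 2 miRNAs of the same library does not depend on how libraries are scaled to each other. The ratio of miR-148a to miR-152 was 0.259, 0.353, 0.605 and 0.291 in SNEB libraries 7S, 8S, 9S and 10S, against 0.452, 0.441, 0.955 and 0.828 in MNEB libraries 2M, 3M, 4M and 5M. Every MNEB library was above 7S, 8S and 10S, and 9S lay between the 2 lower and the 2 higher MNEB libraries, so the groups overlapped through 9S. How many other pairs of miRNAs were apart with 9S set aside was not counted. On the log2 scale the ratio averaged -1.49 ± 0.54 for SNEB and -0.67 ± 0.58 for MNEB (SD, n = 4 each). The difference of -0.82 (standard error 0.40) is a 0.565-fold ratio. It did not reach a p under 0.05 (two-sided exact permutation test with 70 assignments, p = 0.114, Benjamini-Hochberg adjusted p = 0.803 over the ratios of all 7140 pairs of miRNAs above 10 RPM). Of these pairs 1.81% had an unadjusted p under 0.05 in the same exact test, whose smallest possible p is 0.0286.

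The ratio of miR-148a to miR-148b was 9.82, 12.3, 6.72 and 9.91 in SNEB libraries 7S, 8S, 9S and 10S, against 13.0, 15.3, 9.86 and 59.6 in MNEB libraries 2M, 3M, 4M and 5M. Library 5M stood apart with by far the highest ratio. On the log2 scale the groups averaged 3.24 ± 0.36 for SNEB and 4.21 ± 1.16 for MNEB (SD, n = 4 each), a difference of -0.97 with a standard error of 0.61 (two-sided exact permutation test, p = 0.0857, adjusted p = 0.803 over the 7140 pairs). Without 5M the difference was -0.40, and the SD of the log2 ratio over the remaining 7 libraries was 0.38, against 0.95 over all 8. Without 4M the difference was -1.27, with every SNEB library below every remaining MNEB library. This gave the smallest possible p (two-sided exact permutation test, p = 0.0286, adjusted p = 0.915 over all pairs tested). How many of the pairs were also apart without 4M was not counted, so this separation cannot be taken as particular to the 2 genes. With any other library left out instead, p was larger (two-sided exact permutation tests, p = 0.0857 to 0.257). The 2 miR-148 genes thus kept a ratio between 6.72 and 15.3 in every library but 5M.

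The ratio of miR-148b to miR-152 did not differ in a stable direction. It was 0.0263, 0.0287, 0.0901 and 0.0293 in SNEB libraries 7S, 8S, 9S and 10S, against 0.0347, 0.0288, 0.0968 and 0.0139 in MNEB libraries 2M, 3M, 4M and 5M. The log2 difference was 0.14 with a standard error of 0.71 (two-sided exact permutation test, p = 0.971, adjusted p = 0.998 over the 7140 pairs). It turned to -0.28 without 9S and to -0.29 without 5M. In the 5 libraries other than 9S, 4M and 5M the ratio stayed between 0.0263 and 0.0347, so that 9S and 4M were alike in their high share of miR-148b, 1 in each group. With library 2M placed in SNEB, the differences of the 3 log2 ratios were -0.91 for miR-148a to miR-152, -1.04 for miR-148a to miR-148b and 0.13 for miR-148b to miR-152 (two-sided exact permutation tests, p = 0.0714, 0.0893 and 0.946). Without 2M they were -0.98, -1.13 and 0.15 (p = 0.114, 0.0857 and 0.971 in the same exact test).

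**Figure D3:**
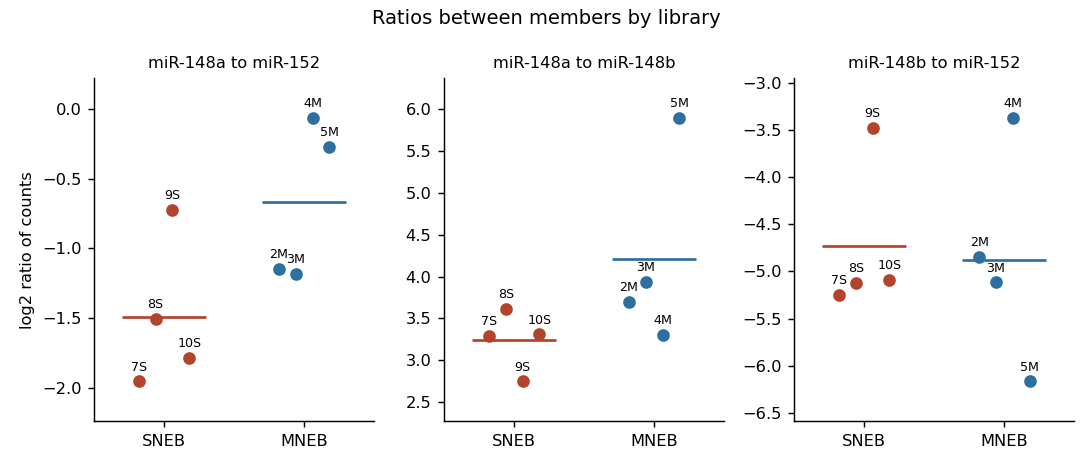
Ratio of the counts of each pair of members on the log2 scale, with 1 point per library, SNEB left of MNEB, and lines at the group means. For miR-148a to miR-152 the SNEB mean of -1.49 lies below the MNEB mean of -0.67, with 9S inside the MNEB range.

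The counts of SNEB were set against those of MNEB with edgeR's quasi-likelihood test after TMM scaling, and p-values were adjusted by Benjamini-Hochberg over the 120 miRNA genes above 10 RPM. None of the 3 members passed an adjusted p under 0.05, as none of the 120 did (0 called, 0%). At an unadjusted p under 0.05, 11 of the 120 were lower in SNEB (9.17%), among them miR-148a, and 5 were higher (4.17%), none of them a member. The log2 fold change was below 0 for all 3 members and for 76 of the 120 (63.3%). edgeR's exact test and limma voom also called 0 of the 120, and DESeq2 called 1, which was no member. The scaling matters here, because 5M had a TMM factor of 0.270 while the other 7 libraries had 1.09 to 1.44. All reads of 5M, those of miR-122 included, are thus scaled up relative to the other libraries. The median log2 fold change of the 120 miRNA genes was -0.20 with TMM and 0.06 without scaling.

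miR-148a had the largest fold of the family. After TMM scaling it stood at 671, 733, 1629 and 662 RPM in SNEB libraries 7S, 8S, 9S and 10S, against 839, 1334, 3944 and 3712 RPM in MNEB libraries 2M, 3M, 4M and 5M, and the groups overlapped through 9S. The log2 fold change was -1.41 (standard error 0.54), or 2.66-fold lower in SNEB (edgeR's quasi-likelihood test, adjusted p = 0.317), and -1.21 relative to the median of the 120. The log2 fold change was -1.72 with library 2M in SNEB (adjusted p = 0.0794) and -1.46 without 2M (adjusted p = 0.188), and -1.01 without scaling (adjusted p = 0.991), in the same test. It was -0.87 without 4M and -0.84 without 5M, and with both left out -0.23 (adjusted p = 0.941), a choice made after seeing the data. On log2 of RPM plus 0.5 miR-148a had a difference of -0.74, which did not reach a p under 0.05 (two-sided exact permutation test, p = 0.371).

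miR-152 had a log2 difference of -0.49 between the groups with a standard error of 0.39 (adjusted p = 0.628 in edgeR's quasi-likelihood test), which is -0.29 relative to the median of the 120. After TMM scaling SNEB libraries 7S, 8S, 9S and 10S stood at 2596, 2079, 2691 and 2277 RPM. MNEB libraries 2M, 3M, 4M and 5M stood at 1856, 3028, 4131 and 4483 RPM. The groups overlapped through 2M, whose label and title differ and which was below every SNEB library. Libraries 3M, 4M and 5M were above every SNEB library, and 5M went from the lowest in RPM to the highest. How many of the 120 miRNA genes overlapped through 2M alone was not counted. The log2 fold change was -0.75 with 2M in SNEB (adjusted p = 0.148) and -0.47 without 2M (adjusted p = 0.538). On log2 of RPM plus 0.5 the difference was 0.08 (two-sided exact permutation test, p = 0.886), and the fit without scaling gave -0.14, so the sign of this small difference depended on the measure.

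miR-148b had a log2 fold change of -0.49 with a standard error of 0.68 (adjusted p = 0.786 in edgeR's quasi-likelihood test), which is -0.29 relative to the median of the 120. After TMM scaling 5M, at 62.3 RPM, no longer stood below the other libraries, and 242 RPM in 9S and 400 RPM in 4M remained far above the rest, 59.7 to 87.3 RPM. Leaving out 4M turned the log2 fold change to 0.77 (standard error 0.58, adjusted p = 0.740), and leaving out 9S gave -1.24 (adjusted p = 0.389). The value of miR-148b thus rested on these 2 libraries. It was -0.87 with 2M in SNEB (adjusted p = 0.428) and -0.52 without 2M (adjusted p = 0.729). On log2 of RPM plus 0.5 the difference was 0.22 (two-sided exact permutation test, p = 0.943), and the fit without scaling gave -0.48.

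**Figure D4:**
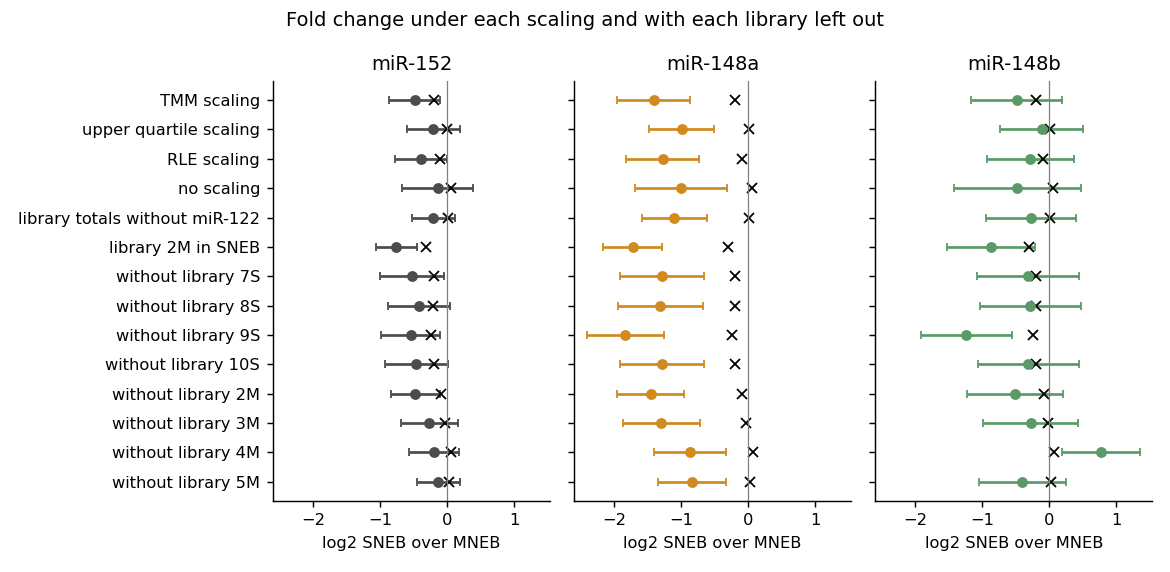
The log2 fold change of SNEB over MNEB for each member from edgeR's quasi-likelihood test, under 5 ways of scaling, with library 2M in SNEB, and with each library left out. Points carry standard errors and crosses are the median of the 120 miRNA genes in the same fit. miR-148a is below 0 in every row, from -1.83 without 9S to -0.84 without 5M, and miR-148b is above 0 without 4M.

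The members also varied to a different extent within groups. On log2 of RPM plus 0.5, the SD over the 4 SNEB libraries was 1.08 for miR-148b, 0.75 for miR-148a and 0.27 for miR-152, against a median of 0.39 for the 120 miRNA genes. Over the 4 MNEB libraries it was 2.08 for miR-148b, 1.20 for miR-148a and 0.98 for miR-152, against a median of 1.29. miR-148b ranked 6th from the most variable in SNEB and 20th in MNEB, and miR-152 ranked 91st and 79th. The SDs of miR-148a and miR-148b in SNEB rest on library 9S, since the other 3 SNEB libraries lay between 733 and 825 RPM for miR-148a and between 67.2 and 79.6 RPM for miR-148b. In MNEB the SD of miR-148b rests on 4M and 5M, at 577 and 16.8 RPM against 73.5 RPM in 2M and 98.9 RPM in 3M. It also depends on the scaling, since after TMM scaling 5M stood at 62.3 RPM, beside 64.5 RPM in 2M.

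How closely other miRNAs followed a member was measured by the SD, over the 8 libraries, of the log2 ratio to it. A small SD means a nearly constant ratio, whatever the scaling. Of 119 other miRNA genes, miR-152 was the 15th closest to miR-148a (SD 0.68) and miR-148b the 34th (SD 0.95), against a median of 1.20. The closest to miR-148a were miR-885 (0.39), miR-210 (0.41), miR-27b (0.43), miR-30f (0.48) and miR-125a (0.49). Of these miR-885 is known as a liver-enriched miRNA and miR-210 as one induced by low oxygen. miR-885 stood at 116 to 382 RPM in SNEB and 106 to 481 RPM in MNEB, and was also highest in 9S and 4M.

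The miRNAs closest to miR-148b were miR-125b-2 (0.41), miR-1307 (0.43), miR-130a (0.45), miR-199b (0.55) and miR-140 (0.63), and the other members followed it less closely, miR-152 in position 26 (0.94) and miR-148a in position 28 (0.95). miR-152 was followed more closely by many miRNAs, with a median SD of 0.86, and most closely by miR-17 (0.30), miR-30e (0.30), miR-192 (0.31), miR-186 (0.31) and miR-99a (0.32). miR-192 is an abundant miRNA of liver, intestine and kidney, at 69022 ± 9300 RPM for SNEB and 93890 ± 51784 RPM for MNEB (SD, n = 4 each). Between miR-152 and the miR-148 genes the SD was larger, 0.68 for miR-148a in position 42 and 0.94 for miR-148b in position 71. Over all 7140 pairs, 18.9% had a smaller SD than miR-148a with miR-152, 40.6% than miR-148b with miR-152 and 41.2% than miR-148a with miR-148b. Over the 8 libraries the nearest miRNAs of each member were not the other members, but the distance between the miR-148 genes rested on library 5M. Without 5M, a choice made after seeing the data, their SD was 0.38, with miR-148b the 4th closest to miR-148a and miR-148a the 2nd closest to miR-148b. Without 4M and 9S the SD of miR-148b with miR-152 was 0.46, and miR-148b was the 33rd closest to miR-152.

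**Figure D5:**
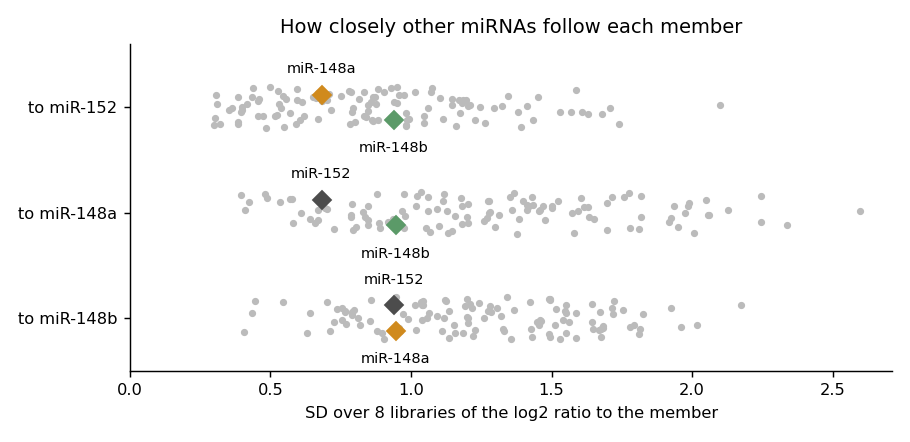
SD over the 8 libraries of the log2 ratio of each other miRNA gene above 10 RPM to miR-152, miR-148a and miR-148b, with grey points for miRNAs outside the family and diamonds for members (vertical scatter carries no value). The members lie between 0.68 and 0.95, while the nearest miRNAs of each member lie between 0.30 and 0.41.

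The miR-130 family, which includes miR-301a, miR-301b and miR-454, is the nearest relative by seed, since its seed is known to overlap that of miR-148 with a shift of a single base. Of its 5 genes in the table, miR-130a was the one above 10 RPM. It stood at 45.1, 42.2, 143.5 and 62.0 RPM in SNEB libraries 7S, 8S, 9S and 10S, against 44.1, 69.3, 211 and 5.62 RPM in MNEB libraries 2M, 3M, 4M and 5M. Like miR-148b, it was highest in 4M and 9S and lowest in 5M. Its log2 fold change was -0.18 with a standard error of 0.58 (adjusted p = 0.886 in edgeR's quasi-likelihood test). miR-130b and miR-301a lay at 6.25 RPM or below in every library, miR-454 at 2.08 RPM or below, and miR-301b was read in 2 libraries.

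Markers of other liver cells were read beside the members. The 4 leukocyte and Kupffer cell miRNAs, all read in every library, summed to 305 to 605 RPM in SNEB (median 433) and 23.6 to 904 RPM in MNEB (median 447). Their sums were highest in 4M and 9S and lowest in 5M, the same libraries as for miR-148b and miR-152. Of the 120 miRNA genes above 10 RPM, 35.0% had 4M and 9S as the 2 highest libraries and 85.8% had 5M as the lowest. The leukocyte sum is nearly all miR-142, at 855 RPM in 4M and 566 RPM in 9S. miR-150 and miR-155 were also highest in 4M and 9S, while miR-223 was highest in 2M (18.6 RPM) and 7S (13.7 RPM). The stellate cell, smooth muscle and fibroblast miRNAs, of which 5 of 6 are in the table and were read in every library, summed to 1831 to 2896 RPM in SNEB (median 2592) and 2331 to 12888 RPM in MNEB (median 5085). Their sum was 12888 RPM in 4M and 7495 RPM in 5M, the libraries with the highest ratio of miR-148a to miR-152, and 2793 RPM in 9S. The sum rests on miR-143, at 12583 RPM in 4M and 7442 RPM in 5M. The other markers of the list did not follow it in 5M, where miR-145 (42.4 RPM), miR-199b (8.33 RPM) and miR-214 (1.62 RPM) were at their lowest of the 8 libraries, and miR-145, miR-199a-1 and miR-214 had higher means in SNEB than in MNEB. The hepatocyte miRNAs, 5 of 6 in the table, all read in every library and led by miR-122, summed to 753553 to 820759 RPM in SNEB (median 809963) and 741236 to 937547 RPM in MNEB (median 839286), lowest in 4M and 9S. That sum is nearly all miR-122. Other markers of the list went the other way, with miR-192 highest in 4M (139671 RPM) and miR-885 highest in 4M and 9S (481 and 382 RPM). The remaining markers did neither, since miR-194-2 was highest in 3M (366 RPM) and miR-194-1 in 10S (14.0 RPM). In 9S these stood at 109 and 1.74 RPM. The endothelial miRNAs (3 of 3 read in every library) summed to 273 to 558 RPM in SNEB (median 506) and 110 to 450 RPM in MNEB (median 336). The erythrocyte miRNAs (3 of 3) summed to 62.3 to 108 RPM in SNEB (median 99.1) and 51.0 to 83.8 RPM in MNEB (median 80.6). The part of these cell types in the levels of the family was not tested.

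Fragments of the genes that host the members were rare in these libraries. COPZ1, which overlaps miR-148b, had 14, 14, 11 and 13 reads in SNEB libraries 7S, 8S, 9S and 10S, against 11, 2, 14 and 6 reads in MNEB libraries 2M, 3M, 4M and 5M. The groups overlapped, and the log2 fold change was 0.53 with a standard error of 0.48 (adjusted p = 0.692 in edgeR's quasi-likelihood test over 2380 protein-coding genes). COPZ2, which overlaps miR-152, had 6 to 17 reads in SNEB and 1 to 13 in MNEB and was not tested, since it reached 10 reads in 2 libraries. Such fragments come from longer RNAs and are not mRNA levels.

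Of 19 genes known as targets of the family in human or mouse, 8 had enough reads for the test and 0 passed, with 0.21% of the 2380 protein-coding genes passing edgeR's quasi-likelihood test (5 genes, 14 without library 2M, 77 without 5M, and 2 to 4 without any 1 of the others). At an unadjusted p under 0.05, 1 target was higher in SNEB (NR1I2) and 1 lower (ABCA1), beside 6.18% of all protein-coding genes tested that were higher and 6.22% that were lower, and DESeq2 also called 0 of the 8. The 8 had a median log2 fold change of 0.29, with 5 above and 3 below 0, against a median of -0.00 over all protein-coding genes tested. The DNA methyltransferase genes had too few reads for the test, with 55 reads in all for DNMT1, 25 for DNMT3A and 1 for DNMT3B. WNT10B, a growth factor gene, had 0 reads in every library, which allows up to 0.139 RPM, the level of 3 counts in the library with the fewest reads.

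Among the lipid genes, fragments of ABCA1 were uneven between libraries. It had 60, 66, 58 and 56 reads in SNEB libraries 7S, 8S, 9S and 10S, against 39, 74, 283 and 120 reads in MNEB libraries 2M, 3M, 4M and 5M. Per 1000000 protein-coding reads the SNEB libraries were close together, at 426, 337, 398 and 480, while 4M and 3M, at 1323 and 1257, were far above 2M and 5M, at 453 and 427. Its log2 fold change was -1.15 with a standard error of 0.42 (adjusted p = 0.245 in edgeR's quasi-likelihood test). On that scale 4M, the highest library for miR-148a, was also the highest for ABCA1. Library 9S, the highest SNEB library for miR-148a, was within the range of its group for ABCA1. Whether the levels of ABCA1 fragments and miR-148a go together was not tested. INSIG1, which restrains cholesterol synthesis, had 103, 110, 70 and 219 reads in SNEB libraries 7S, 8S, 9S and 10S, against 49, 90, 90 and 59 reads in MNEB libraries 2M, 3M, 4M and 5M. Its log2 fold change was 0.36 with a standard error of 0.54 (adjusted p = 0.843 in the same test). The groups overlapped. Without 10S the log2 fold change of INSIG1 turned to -0.22.

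The target with the highest log2 fold change was NR1I2, which encodes the xenobiotic receptor PXR. It had 19, 43, 10 and 9 reads in SNEB libraries 7S, 8S, 9S and 10S, against 4, 2, 10 and 19 reads in MNEB libraries 2M, 3M, 4M and 5M, and its log2 fold change was 1.15 with a standard error of 0.45 (adjusted p = 0.284 in edgeR's quasi-likelihood test). Per 1000000 protein-coding reads, the library size of the fit, NR1I2 stood at 135, 219.8, 68.7 and 77.1 in those SNEB libraries, against 46.5, 34.0, 46.7 and 67.7 in those MNEB libraries. On that scale every SNEB library was above every MNEB library, by little between 9S and 5M, while the raw reads of the groups overlapped. The groups were apart in the same direction for 5.13% of the 2380 protein-coding genes, and in the opposite direction for 1.72%. The other 5 targets tested were PPARGC1A, ERBB3, MET, IRS1 and ROCK1, with adjusted p of 0.533 to 0.962 in the same test.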

How the data were processed

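Small RNA libraries of 8 livers were sequenced by the authors, 1 per cow. The deposited counts are uniquely aligned reads per Ensembl gene. The authors trimmed adaptors with Cutadapt 1.1, checked reads with FastQC 0.10.0, filtered them on base quality, aligned them to UMD3.1 with Novoalign 2.07.11 in miRNA mode and counted with HTSeq 0.5.3p3. Reads of both arms of a hairpin enter 1 gene, and reads with several alignments were left out. A second deposited table of means was not used. The table's 3 lines that name no gene stayed out. Library 8S was read from the column with the header 6S, since its label gives that column's letter. Groups came from the titles of the libraries.

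RPM used the total over all genes. Counts were fitted with edgeR 4.0.16 (quasi-likelihood, TMM) in R 4.3.3 over miRNA genes with a mean above 10 RPM, and over protein-coding genes with at least 10 reads in at least 4 libraries, with the total over protein-coding genes as library size. Standard errors are the fold change over the root of F. The fits were tested on simulated data. Ratios took counts plus 0.5 on the log2 scale, with exact permutation tests over all assignments of libraries to groups (numpy 2.4.6, scipy 1.17.1, pandas 2.3.3, Python 3.11.15). There were 70 assignments with 4 against 4 libraries, and fewer with 2M in SNEB or with libraries left out. Depth was at least 21617227 gene counts per library, and a count of 0 allows 3 counts. Alternatives were other scalings and filters, edgeR's exact test, limma 3.58.1 voom, DESeq2 1.42.0, library 2M in SNEB, and libraries left out. RefSeq gave gene neighbours by name, and 3 of 3 members matched.

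The members, the lists of targets and markers and the tests were chosen with earlier results of these data known. Named genes are the members, the 5 miRNAs closest to each by the SD of the log2 ratio, the miRNAs next to each in mean RPM, miR-122, the miR-130 family, the host genes and the known targets. Some genes of the target list are not reported here, and its counts leave them out.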

Additional observations from a re-analysis of the deposited data

Results flagged for a closer look

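In groups of 4 libraries, the gap of a value to the nearest library was taken as a share of the group's range. Values whose share was above Dixon's 95% critical value were looked at again. Chance gives such a value in about 1 of 20 independent groups of normally distributed values. Of 14 groups tested, 6 had such a value, all in libraries 9S and 4M. The groups share libraries and counts, so 6 of 14 cannot be set against that rate. Library 9S stood above the other SNEB libraries for miR-148a, at 2212 RPM against 733 to 825 RPM, and for miR-148b, at 329 RPM against 67.2 to 79.6 RPM. It also stood apart in the log2 ratio of miR-148b to miR-152, at -3.47 against -5.25 to -5.09, and in the family's share of miRNA reads, at 0.626% against 0.327% to 0.369%. Library 4M stood above the other MNEB libraries for miR-148a, at 5688 RPM against 956 to 1511 RPM, and for miR-148b, at 577 RPM against 16.8 to 98.9 RPM. By the same measure 9S stood high in SNEB for 9 of the 120 miRNA genes (7.5%), 4M stood high in MNEB for 11 (9.17%), and both did for 5 (4.17%), of which miR-148a and miR-148b are 2. These levels were in RPM. After TMM scaling 4M no longer stood apart for miR-148a, at 3944 RPM beside 3712 RPM in 5M.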

How the results depend on the processing

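miR-148a stayed below 0 under all 21 alternatives run, with adjusted p of 0.0794 to 0.991, and miR-152 did too, with 0.148 to 0.994. With 1 library left out, the log2 fold change ranged from -1.83 to -0.84 for miR-148a, from -0.54 to -0.13 for miR-152 and from -1.24 to 0.77 for miR-148b. miR-148b was 0.53 without libraries 4M and 5M (adjusted p = 0.941, edgeR), an alternative added after seeing the data, and DESeq2 gave it no p. The count of miRNAs called was 1 with no filter, 1 with DESeq2 and 1 with library 2M in SNEB, none of them a member. With 1 library left out, the log2 ratio differences ranged from -1.08 to -0.62 for miR-148a to miR-152, from -1.27 to -0.40 for miR-148a to miR-148b and from -0.29 to 0.64 for miR-148b to miR-152 (-0.28 without 9S, -0.29 without 5M). The family's share difference ranged from -0.266 to 0.0711 percentage points, and was -0.697 of the reads without miR-122. Protein-coding genes called numbered 15 with upper quartile scaling, 12 with no scaling, 40 with at least 1 read in every library, 43 with DESeq2, 12 with 2M in SNEB, and 2 to 77 with 1 library left out, 77 without 5M. INSIG1 ranged from -0.22 without 10S to 1.11 without 3M. The cause of these changes was not tested. No paired analysis was possible because the groups share no replicate numbers.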
